A study of Mus musculus with 16 samples.

Results

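Cytochrome P450 genes were described in epididymal fat, the visceral fat pad beside the epididymis of male mice. The genes were taken by name: of the 27150 genes of the mRNA table, 96 had a name that began with Cyp and a digit, Cyp51 left out as a step of cholesterol synthesis. Of these 96, 59 reached a mean of at least 0.5 CPM (counts per 1000000 mRNA counts of a library) in 1 or more of the 4 groups and are described here, and 37 did not. The genes at this limit were Cyp4a12b, Cyp2c68 and Cyp2j11 just inside it, with highest group means of 0.69, 0.634 and 0.581 CPM, and Cyp4a31, Cyp2d37-ps and Cyp2c38 just outside it, with 0.429, 0.422 and 0.383 CPM, each mean being that of the metformin group. The limit was met in all 4 groups by 39 of the 59 genes, in 3 groups by 9, in 2 groups by 7 and in 1 group, metformin, by Cyp17a1, Cyp21a1, Cyp2d40 and Cyp2j11.

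P450 enzymes are haem proteins of the endoplasmic reticulum or the mitochondrion that insert an oxygen atom into a substrate, with electrons handed on by P450 reductase or by ferredoxin. Families named with the lowest numbers oxidise drugs, toxicants and unsaturated fatty acids, the 4 family hydroxylates the tail end of fatty acids and leukotrienes, and the others act on sterols, bile acids, steroid hormones, vitamin D and retinoic acid. Most of the drug-oxidising members are best known from liver. Fat cells are known for Cyp2e1, and stromal and immune cells of fat carry others, such as Cyp1b1.

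The study sequenced total RNA in 16 libraries, 4 labelled for each of 4 groups of male C57BL/6J mice that were 6 weeks old when purchased. One group ate a normal diet and the other 3 ate a diet with 60% fat, abbreviated HFD below. Of those 3, one had HFD alone, one also had metformin, the glucose-lowering drug, and one also had resveratrol, a stilbene found in grapes. HFD ran for 8 weeks before treatment, in all 3 HFD groups, and the drugs were then given for 6 weeks. The doses and the age at collection were not given in the sources used here, and no altered genotype is named. The titles, the source name and the design text name epididymal or white fat, while the treatment text names skeletal muscle and the extraction text retina. The 12 adipocyte markers summed to between 22190 and 42760 CPM in the 15 libraries tested, the 9 skeletal muscle markers to between 16.8 and 120.5 CPM and the 6 retina markers found to at most 8.19 CPM. Of the 16 count columns, 1 in HFD and 1 in metformin carried a code that gave the group but no sample title, and they are called HFD unmatched and metformin unmatched. Within each group, values by library are listed by replicate number with the unmatched library last (metformin having the numbers 1, 2 and 4). The numbers only name libraries. In the sample codes, HFD 1 to 3 share the number before the hyphen and HFD unmatched has another. Likewise normal diet 1 to 3 share theirs and normal diet 4 has another. Resveratrol 1 and 2 share theirs, and so do metformin 1 and metformin unmatched. What this number stands for is not given in the sources used here.

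Libraries differed in ways that went only partly with the groups. Total mRNA counts lay between 13350585 and 20531032. Resveratrol 4 held 12130 CPM of Crisp1, a gene of epididymal epithelium, against at most 16.3 CPM in the other 15 libraries, and was left out. Among those 15, every metformin library had 15.2 to 16.3 CPM of Crisp1, and the libraries of the other groups had at most 0.178 CPM. The source of this trace was not tested. Markers of ciliated epithelium, of which 18 were found, reached a sum of 580.2 to 1509 CPM in 5 libraries: normal diet 2, resveratrol 2 and every metformin library but number 1. The other 10 had sums of 50.75 to 119.7 CPM, with 2 to 6 of the 18 markers at 0. Liver markers, a list of 10 genes such as Alb and Apoa1, summed to 101 to 785 CPM in normal diet, 15.7 to 201 CPM in HFD, 328 to 1734 CPM in metformin and 39.1 to 249.5 CPM in resveratrol, and none of the 10 was at 0 in any of the 15 libraries. Macrophage markers summed to 3750 to 4075 CPM in HFD 1 to 3, to 1942 CPM in HFD unmatched and to 1329 to 2427 CPM in the other groups. In bulk tissue, fewer cells of a type and less RNA per cell cannot be told apart.

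Cyp2e1, which oxidises ethanol, acetone and fatty acids, was the P450 gene with the highest level in this fat. Levels of different genes were compared as CPM per kilobase of transcript, averaged over the 15 libraries. On that scale Cyp2e1 stood at 901, Cyp4b1, a fatty acid hydroxylase of lung and fat, at 87, Cyp27a1, the mitochondrial sterol side-chain hydroxylase, at 62.7 and Cyp4v3, a fatty acid hydroxylase, at 53.4. Cyp2d22, a 2D-subfamily drug oxidase, followed at 29.9, Cyp1b1, an oestrogen-oxidising target of the aryl hydrocarbon receptor, at 22.6, Cyp4f13 at 21.6, Cyp20a1, which has no known substrate, at 17.7, Cyp4f17 at 14.1 and Cyp4f16 at 12.3. The other 49 genes lay below these 10. The 59 genes were sorted by role, each counted once. Family 2 without Cyp2r1 had 26, family 4 had 13, sterol and bile acid metabolism 6, and steroid hormone synthesis 4 (the pseudogene Cyp21a2-ps among them). The aryl hydrocarbon receptor group and family 3 had 3 each and retinoic acid breakdown 2. Vitamin D had 1, which was Cyp2r1, and 1 gene had no known role. By position, 11 lay on chromosome 4, 10 each on chromosomes 17 and 19, and 7 on chromosome 7.

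The share of P450 counts held by Cyp2e1 separated HFD 1 to 3 from every other library in the fit. It was 71.2 to 81.7% in the normal diet libraries, 15.1, 21.6 and 17.6% in HFD 1 to 3 and 59.7% in HFD unmatched. In metformin it was 47.9 to 56.6% and in resveratrol 56.9 to 68.1%. Summed over the 59 genes, P450 counts came to 4031 ± 671 CPM (SD, n = 4) on normal diet, 1376 ± 659 (n = 4) on HFD, 2037 ± 348 (n = 4) with metformin and 2631 ± 582 (n = 3) with resveratrol. Without Cyp2e1 the sums were 999 ± 62.5, 881 ± 51.4, 974 ± 112 and 953 ± 83.0 CPM in the same order.

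The first comparison asks which P450 genes differed with the high-fat diet. Against normal diet, 5 genes fell and 3 rose by edgeR's quasi-likelihood test with Benjamini-Hochberg adjustment over all genes (adjusted p under 0.05). Those that fell were Cyp2e1, Cyp2d22, Cyp2f2, Cyp2b10 and Cyp4f17, and those that rose were Cyp4v3, Cyp4f16 and Cyp2r1. The 8 genes were 13.8% of the 58 P450 genes tested, where 23.1% of all 17535 genes tested passed (13.8% higher and 9.34% lower). At an unadjusted p under 0.05 there were 21 of 58, beside 37.6% of all genes. The fitted change was negative for 44 of the 58 genes and positive for 14, with a median of -1.14 on the log2 scale, against -0.04 over all genes. The genes were chosen by their level in any 1 of the groups, so nothing is read from this count and median. The gene that was not tested, Cyp21a1, had too few counts.

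Promoter windows of 5 genes are shown. Cyp2e1, Cyp2f2 and Cyp2b10, 3 of the 5 genes that fell, all lie on chromosome 7, as does Cyp2r1, which rose. On that chromosome Cyp2e1 lies far from Cyp2f2 and Cyp2b10. Cyp4v3 had the largest rise among the genes that passed with HFD, and Cyp26b1 rose with metformin (described further on). Each window runs from 250 bases before to 50 bases after the gene start (RefSeq, GRCm38.p6) and is written 5′ to 3′ on the gene's strand. Capitals mark the dioxin response core GCGTG or CACGC, the nuclear receptor half-site AGGTCA or TGACCT, each searched on both strands, and the TATA core TATAA, searched on the gene's strand and chosen after the windows had been seen.
Cyp2e1 (chr7:140763569-140763868, plus strand): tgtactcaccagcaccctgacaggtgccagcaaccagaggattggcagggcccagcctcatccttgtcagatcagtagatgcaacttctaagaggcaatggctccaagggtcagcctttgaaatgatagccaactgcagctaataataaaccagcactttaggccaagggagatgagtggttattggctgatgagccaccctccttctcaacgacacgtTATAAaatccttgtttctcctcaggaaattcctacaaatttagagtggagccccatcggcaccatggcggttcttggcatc
Cyp2f2 (chr7:27119705-27120004, plus strand): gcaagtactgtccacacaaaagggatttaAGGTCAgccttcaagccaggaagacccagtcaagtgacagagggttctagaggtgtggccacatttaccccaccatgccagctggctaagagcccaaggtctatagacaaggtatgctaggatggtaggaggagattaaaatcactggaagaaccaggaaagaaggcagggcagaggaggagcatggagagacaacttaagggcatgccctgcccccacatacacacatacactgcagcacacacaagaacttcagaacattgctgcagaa
Cyp2b10 (chr7:25897408-25897707, plus strand): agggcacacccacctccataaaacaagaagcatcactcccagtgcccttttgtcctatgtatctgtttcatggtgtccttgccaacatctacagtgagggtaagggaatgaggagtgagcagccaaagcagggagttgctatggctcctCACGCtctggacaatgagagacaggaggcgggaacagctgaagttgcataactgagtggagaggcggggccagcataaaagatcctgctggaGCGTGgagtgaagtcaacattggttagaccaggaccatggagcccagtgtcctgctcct
Cyp4v3 (chr8:45333114-45333413, minus strand): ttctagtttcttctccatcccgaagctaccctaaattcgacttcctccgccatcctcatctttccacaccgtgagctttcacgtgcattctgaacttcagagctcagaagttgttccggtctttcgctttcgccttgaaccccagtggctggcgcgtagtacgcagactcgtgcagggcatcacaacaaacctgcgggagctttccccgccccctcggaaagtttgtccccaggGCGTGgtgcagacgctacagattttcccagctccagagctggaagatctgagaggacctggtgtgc
Cyp26b1 (chr6:84593761-84594060, minus strand): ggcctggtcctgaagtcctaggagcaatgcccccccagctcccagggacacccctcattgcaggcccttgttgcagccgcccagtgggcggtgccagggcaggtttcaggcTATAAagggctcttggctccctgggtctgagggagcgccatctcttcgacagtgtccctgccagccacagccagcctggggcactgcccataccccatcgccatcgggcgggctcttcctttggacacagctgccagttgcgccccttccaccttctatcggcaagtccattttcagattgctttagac
The TATA core of Cyp2e1 began 31 bases before the start and that of Cyp26b1 139 bases before it. The half-site in Cyp2f2 began 221 bases before its start, the cores in Cyp2b10 101 and 9 bases before its start, and the core in Cyp4v3 16 bases before its start. Windows were found for 44 of the 59 genes, 50 windows in all. The dioxin core was in 30% of these and in 32.4% of the 32851 windows of all genes, the half-site in 20% and 16.3%, and the TATA core in 40% and 17.5%. A match describes letters and is not a binding site.

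**Figure D1:**
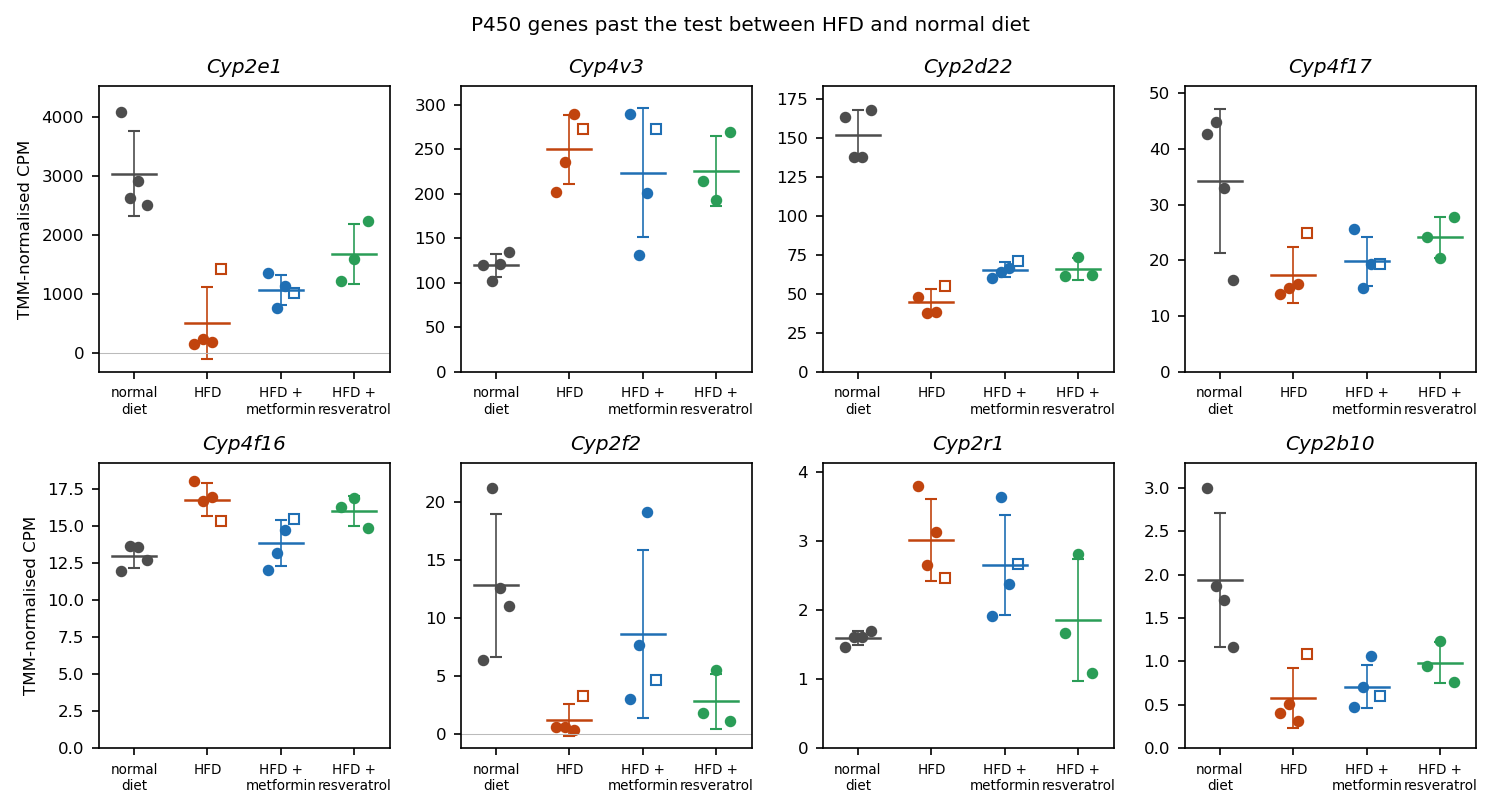
Level (TMM-normalised CPM, linear axis) of the 8 P450 genes past the test between HFD and normal diet, in the 15 libraries: points are libraries, open squares the unmatched ones, horizontal lines group means and whiskers 1 SD. The open square of HFD lies far above the other 3 HFD libraries for Cyp2e1 (1410.4 against 154 to 230.3 CPM) and Cyp2f2.

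Cyp2e1 (chr7:140763739-140774987, GRCm38) stood at 4082, 2624, 2911 and 2508 CPM in the normal diet libraries and at 154, 230.3, 187 and 1410.4 CPM in the HFD libraries. The groups did not overlap, and HFD unmatched was the highest of the HFD libraries. The mean was 3031 ± 721 CPM on normal diet and 495 ± 611 CPM on HFD (SD, n = 4 each). Cyp2e1 was 6.12-fold lower on HFD (log2 fold change -2.61 ± 0.62 (SE), adjusted p = 0.00984). Without HFD unmatched the log2 fold change was -4.01, and in a fit of all 16 libraries the call was lost (adjusted p = 0.0934).

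Cyp2d22 had 163, 138, 138 and 168 CPM on normal diet and 47.9, 37.4, 38.4 and 55.1 CPM on HFD. Every HFD library lay below every normal diet library, HFD unmatched included. It was 3.39-fold lower (log2 fold change -1.76 ± 0.13 (SE), adjusted p = 2.23e-05), the smallest adjusted p among the P450 genes in this comparison, and it passed in each of the 22 alternatives. Its relatives Cyp2d9, Cyp2d10, Cyp2d26 and Cyp2d40 lie in the same cluster of chromosome 15, and how shared reads were split is not given in the sources used here.

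Cyp2f2, best known for activating naphthalene in mouse airway, had 6.38, 21.1, 12.6 and 11 CPM on normal diet and 0.557, 0.614, 0.365 and 3.25 CPM on HFD. The groups did not overlap. The fall was 10.7-fold (log2 fold change -3.42 ± 0.83 (SE), adjusted p = 0.0106), and without HFD unmatched the log2 fold change was -4.64. Cyp2b10, a drug oxidase induced through the constitutive androstane receptor, was at a low level, 3.0, 1.87, 1.71 and 1.17 CPM on normal diet against 0.405, 0.511, 0.313 and 1.08 CPM on HFD, without overlap. It fell 3.33-fold (log2 fold change -1.74 ± 0.43 (SE), adjusted p = 0.0115).

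Cyp4f17, of the subfamily that hydroxylates leukotrienes and long-chain fatty acids, had 42.6, 44.8, 33 and 16.5 CPM on normal diet and 14, 15, 15.8 and 24.9 CPM on HFD. Here the groups overlapped, since normal diet 4 lay below HFD unmatched. The fall was 1.97-fold (log2 fold change -0.98 ± 0.29 (SE), adjusted p = 0.0259). The call was lost without normal diet 1 or 2 or HFD 1, 2 or 3 (adjusted p 0.0712 to 0.0776), without the 5 libraries rich in ciliated epithelium genes (0.0886) and with all 16 libraries (0.0578).

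Cyp4v3 moved the other way, from 120.0, 102, 121 and 134 CPM on normal diet to 202, 235, 289.6 and 273 CPM on HFD. All 4 HFD libraries were above all 4 normal diet libraries, HFD unmatched among them. It was 2.09-fold higher (log2 fold change 1.06 ± 0.21 (SE), adjusted p = 0.00454), and the call was lost with all 16 libraries (adjusted p = 0.222). Cyp4f16, a neighbour of Cyp4f17 on chromosome 17, had 12, 13.6, 13.6 and 12.7 CPM and 18.1, 16.7, 17 and 15.4 CPM, again without overlap. Its rise was 1.29-fold (log2 fold change 0.37 ± 0.10 (SE), adjusted p = 0.0155) and did not pass without HFD 1 (adjusted p = 0.0532) or with all 16 libraries (0.411).

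Cyp2r1, which carries out the first activating hydroxylation of vitamin D, had 1.46, 1.62, 1.61 and 1.7 CPM on normal diet and 3.8, 2.66, 3.13 and 2.47 CPM on HFD, with no overlap. It rose 1.88-fold (log2 fold change 0.91 ± 0.30 (SE), adjusted p = 0.0402). This call was lost without any 1 of normal diet 1 to 4, HFD 1 to 3, metformin unmatched or resveratrol 1 (adjusted p 0.0526 to 0.116), with no filter on low counts (0.0615) and with all 16 libraries (0.223).

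Of the other well-known P450 genes, none passed between HFD and normal diet. Cyp27a1 had 104, 99.1, 107 and 118 CPM on normal diet and 68.7, 78.6, 62.6 and 94.1 CPM on HFD (log2 fold change -0.49, interval -0.87 to -0.12, adjusted p = 0.055; the intervals are 95% intervals of the fit). Every HFD library was lower, and the gene passed in 8 alternatives, among them without HFD unmatched (adjusted p = 0.0197) and with the ciliated marker sum as covariate (0.00849). Cyp1b1 had 99.7, 199, 205 and 121 CPM and 118, 96, 126 and 71.3 CPM, with overlap (log2 fold change -0.60, interval -1.10 to -0.11, adjusted p = 0.0744). It passed as lower by DESeq2 (adjusted p = 0.0482) and without normal diet 1 (0.0235). Cyp7b1, the oxysterol hydroxylase that clears side-chain hydroxylated cholesterol, had 0.999, 5.61, 3.1 and 1.11 CPM and 1.37, 1.28, 0.99 and 1.63 CPM, also with overlap (log2 fold change -1.04, interval -2.19 to 0.10, adjusted p = 0.167). Retinoic acid is broken down by Cyp26b1, which had 6.07, 12.3, 3.21 and 6.27 CPM and 2.58, 2.56, 3.28 and 4.4 CPM, normal diet 3 within the HFD range (log2 fold change -1.12, interval -2.28 to 0.04, adjusted p = 0.145). Cyp4f18, the leukotriene hydroxylase of myeloid cells, had 7.22, 6.22, 11.4 and 8.85 CPM and 15.5, 15.9, 14.9 and 8.67 CPM (log2 fold change 0.70, interval 0.04 to 1.36, adjusted p = 0.114), and it passed as higher without metformin 2 (adjusted p = 0.0481). HFD 1 to 3, the libraries with the highest macrophage sums, were above every normal diet library for Cyp4f18 and HFD unmatched was not, and the part of macrophage content in this was not tested.

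The remaining genes of high level did not pass either. Cyp4b1 had 161, 102, 121 and 142 CPM and 175, 152, 122 and 184 CPM (log2 fold change 0.26, interval -0.36 to 0.89, adjusted p = 0.531). Cyp20a1 had 38.3, 34, 38.9 and 41.3 CPM and 41.4, 43.5, 45.4 and 34.5 CPM (log2 fold change 0.11, interval -0.18 to 0.40, adjusted p = 0.569). Cyp4f13 had 37.6, 33.7, 33.6 and 33.8 CPM and 31.4, 35, 29.7 and 29.3 CPM (log2 fold change -0.15, interval -0.34 to 0.05, adjusted p = 0.261). The values of these 3 genes overlapped between the groups, and each interval spans 0.

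By role, the fitted change with HFD was negative for 20 of the 26 genes of family 2 other than Cyp2r1 (median -1.45). It was negative for 8 of 13 of family 4 (median -0.61) and all 6 of the sterol and bile acid group (median -0.77). The same held for all 3 of family 3 (median -2.18), all 3 of the aryl hydrocarbon receptor group (median -0.60) and the 3 steroid hormone genes tested (median -0.56). None of the last 4 groups had a gene past the test. Nothing is read from these counts and medians either, given how the genes were chosen. Large estimates with wide errors were common: Cyp4a14, a target of the fatty acid receptor Ppara, went from 5.22, 35, 24.6 and 23.2 CPM to 2.63, 1.07, 0.208 and 4.52 CPM (log2 fold change -3.39 ± 1.22 (SE), adjusted p = 0.0621), and Cyp3a11, the main drug oxidase of mouse liver, from 1.15, 24.2, 19.9 and 11.5 CPM to 3.34, 1.18, 0.573 and 7.53 CPM (log2 fold change -2.18 ± 0.96 (SE), adjusted p = 0.117). Both genes had their lowest HFD value in HFD 3, the library with the lowest liver marker sum, and their lowest normal diet value in normal diet 1, the normal diet library with the lowest such sum. For Cyp3a11 that library lay within the HFD range, while for Cyp4a14 the groups did not overlap. In this comparison 2 of the 10 liver markers fell and none rose, and their part in the P450 values was not tested. Leaving out HFD unmatched raised the count to 16 P450 genes, 3 higher and 13 lower, leaving out HFD 1 lowered it to 5, and all 16 libraries gave 3. Calls over all genes moved too, from 4050 to between 2720 and 4979 with 1 library left out and to 1523 with all 16. Nothing is read from these shifts of the P450 count.

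**Figure D2:**
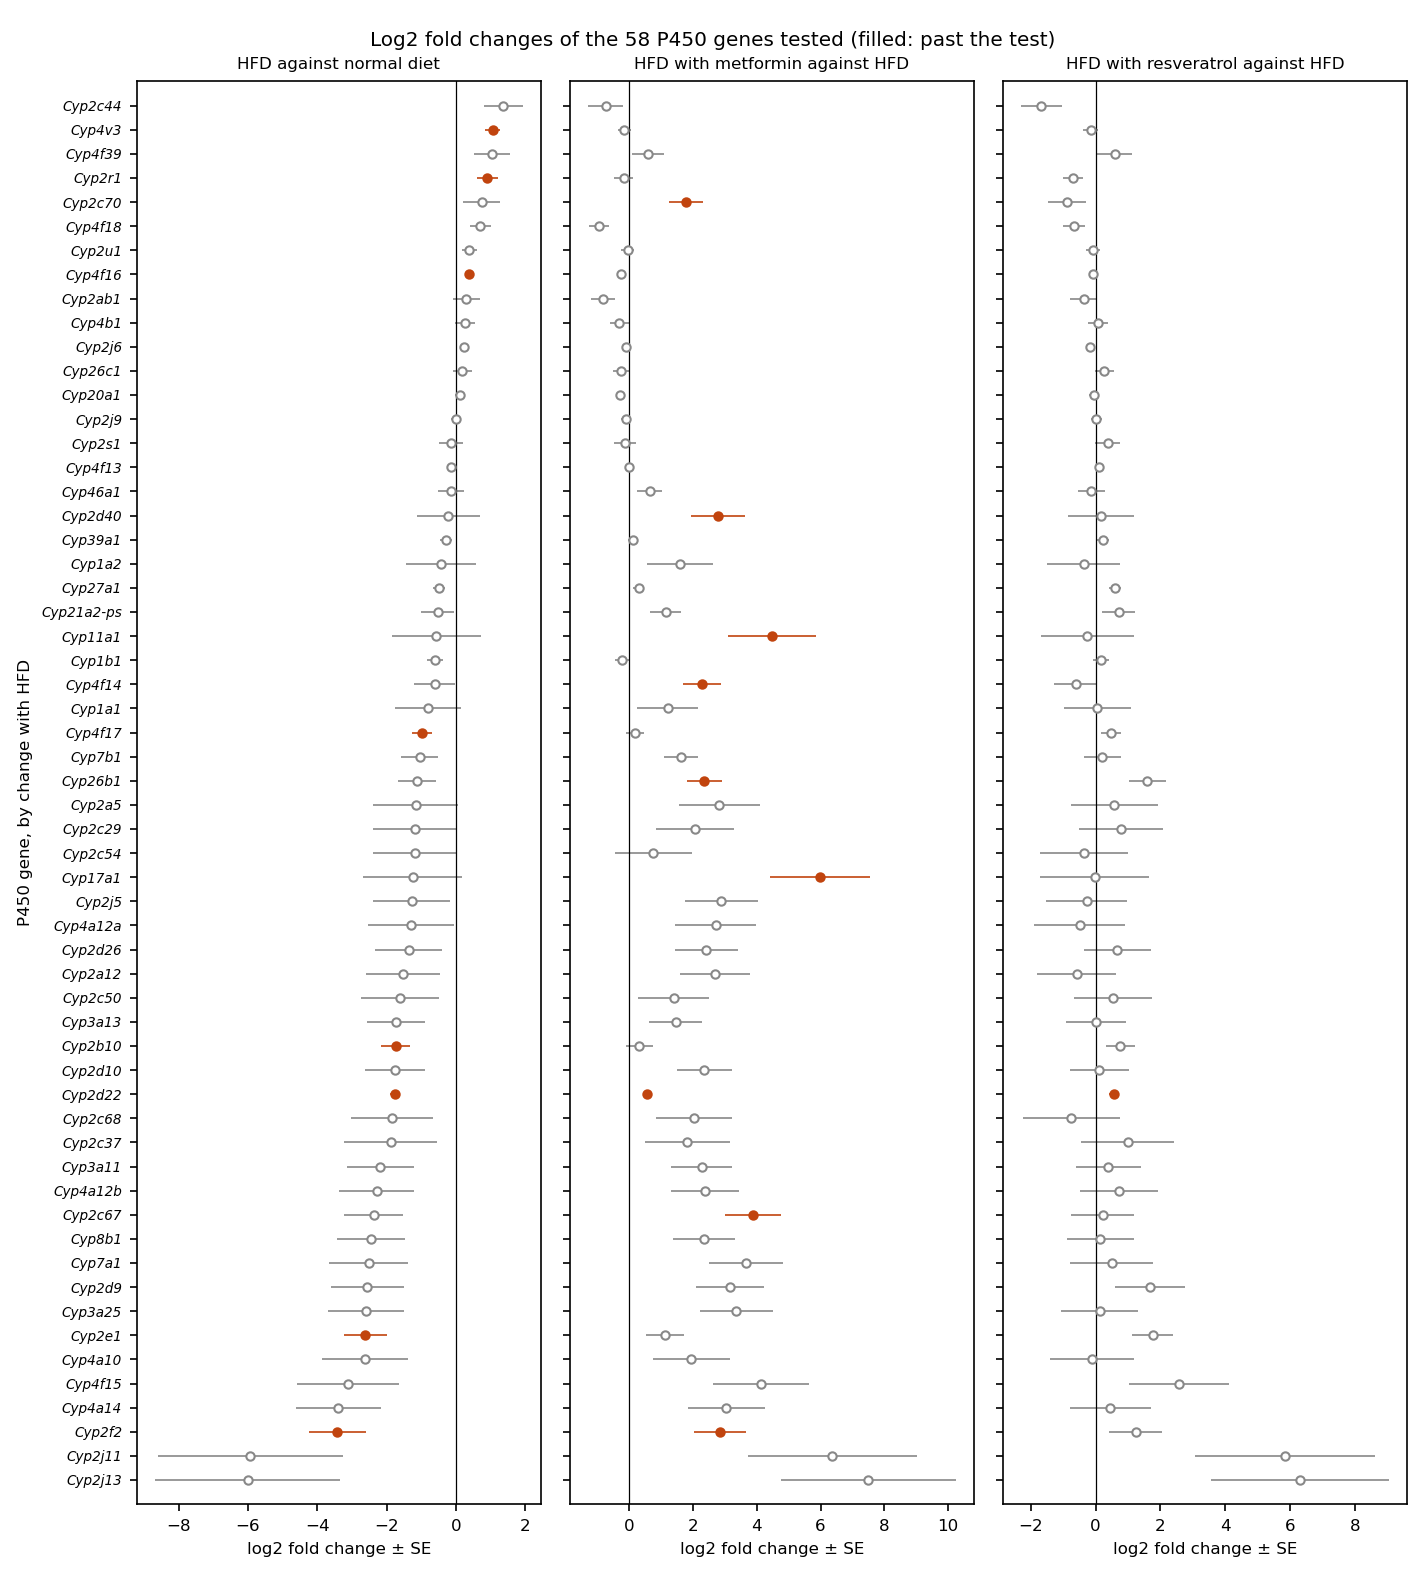
Log2 fold change (horizontal axis, ± SE) of each of the 58 P450 genes tested, ordered by the change between HFD and normal diet, in 3 comparisons; filled points passed the test. Most points lie left of 0 in the first panel (44 of 58) and right of 0 in the second (43 of 58). Over all genes tested, 46.2% of changes were positive in the first comparison and 53.6% in the second. The P450 genes were chosen by their level in any of the groups, so nothing is read from these counts. Cyp2j11 and Cyp2j13 had at most 2 counts over all HFD libraries, so their positions are set by the fit.

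The second comparison asks which P450 genes differed when metformin was added to HFD. It uses the same HFD libraries as the first, so the values of both are not independent. With metformin 9 genes rose and 0 fell: Cyp2d22, Cyp26b1, Cyp2f2, Cyp2c67, Cyp2c70, Cyp4f14, Cyp2d40, Cyp11a1 and Cyp17a1. They were 15.5% of the 58 tested, where 13.9% of all genes passed (6.1% higher and 7.85% lower). At an unadjusted p under 0.05 there were 30 of 58, beside 35.4% of all genes. The fitted change was positive for 43 of 58 genes, with a median of 1.6 against 0.04 over all genes. Cyp17a1 and Cyp2d40, of the 9, and Cyp2j11 met the limit of 0.5 CPM in metformin only and so entered through the group where they are high. Nothing is therefore read from the count of calls, the 30 of 58, the 43 of 58, the median or the calls of Cyp17a1 and Cyp2d40.

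Cyp2d22 stood at 59.8, 63.8, 66.8 and 71 CPM with metformin, each library above every HFD library, and was 1.46-fold higher (log2 fold change 0.55 ± 0.13 (SE), adjusted p = 0.0187). It remained below every normal diet library. Cyp2f2 rose to 3.02, 7.62, 19.1 and 4.64 CPM, which was 7.21 times the HFD level (log2 fold change 2.85 ± 0.81 (SE), adjusted p = 0.0391). Metformin 1 lay below HFD unmatched for this gene, so the groups overlapped, and metformin 4, with the highest liver marker sum (1734 CPM), held the highest value. Without metformin 4 the log2 fold change was 2.10 (adjusted p = 0.0866), and without HFD unmatched it was 4.07. Of the other genes that had fallen or risen with HFD, Cyp2e1 had 1353, 760.4, 1131 and 1009.6 CPM with metformin (log2 fold change 1.10, interval -0.18 to 2.38, adjusted p = 0.203). All 4 lay above HFD 1 to 3 and below HFD unmatched, and without HFD unmatched the log2 fold change was 2.50 and passed (adjusted p = 0.000314). 

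Cyp4v3, raised by HFD, had 289, 132, 201 and 273 CPM with metformin (log2 fold change -0.16, interval -0.62 to 0.30, adjusted p = 0.631). Cyp4f16 had 12.1, 13.2, 14.8 and 15.5 CPM (log2 fold change -0.27, interval -0.48 to -0.06, adjusted p = 0.0692). Cyp2r1 had 1.92, 3.63, 2.38 and 2.67 CPM (log2 fold change -0.18, interval -0.81 to 0.44, adjusted p = 0.693). None of these 3 genes that HFD had raised passed, and each overlapped with HFD. Cyp4f17 had 25.6, 15, 19.3 and 19.4 CPM (log2 fold change 0.19, interval -0.43 to 0.80, adjusted p = 0.677). Cyp2b10 had 0.48, 0.703, 1.06 and 0.60 CPM (log2 fold change 0.31, interval -0.61 to 1.23, adjusted p = 0.646), below every normal diet library. These also overlapped with HFD and did not pass.

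Cyp26b1 had 8.58, 34.1, 13 and 9.66 CPM with metformin, all above the HFD libraries, and was 5.09-fold higher (log2 fold change 2.35 ± 0.55 (SE), adjusted p = 0.021). Metformin 2 held the highest of these values, and without it the log2 fold change was 1.69 and the adjusted p 0.0525. The libraries rich in ciliated epithelium genes held the highest Cyp26b1 values of the fit. Among them were normal diet 2 (12.3 CPM) and resveratrol 2 (17.5 CPM), and HFD had no such library. With their marker sum as a covariate the adjusted p was 0.175. Cyp2c67, of the 2C subfamily that makes epoxides of arachidonate in liver, had 0.307, 1.67, 1.23 and 0.821 CPM on normal diet, 0.253, 0.0512, 0.104 and 0.361 CPM on HFD and 2.4, 2.7, 4.55 and 1.96 CPM with metformin. The metformin libraries were above every HFD and every normal diet library (14.8-fold over HFD, log2 fold change 3.88 ± 0.88 (SE), adjusted p = 0.0179). Cyp2c70, which makes muricholic bile acids in mouse liver, had 0.231, 1.01, 0.963 and 0.469 CPM on normal diet, 0.709, 0.921, 1.56 and 1.39 CPM on HFD and 3.77, 2.93, 4.65 and 4.31 CPM with metformin. It was likewise highest in the 4 metformin libraries (3.41-fold over HFD, log2 fold change 1.77 ± 0.53 (SE), adjusted p = 0.0441).

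Cyp4f14, a liver hydroxylase of leukotriene B and of vitamin E side chains, had 0.538, 0.859, 0.589 and 1.06 CPM on normal diet, 0.405, 0.307, 0.261 and 1.02 CPM on HFD and 1.1, 2.7, 4.15 and 1.8 CPM with metformin. The metformin libraries were above the HFD libraries and metformin 4 was the highest (4.87-fold over HFD, log2 fold change 2.28 ± 0.59 (SE), adjusted p = 0.0282). Cyp2d40 stayed near the limit of description, with 0, 0.202, 0.107 and 0.117 CPM, 0.101, 0.0512, 0 and 0.241 CPM and 0.686, 0.703, 1.01 and 0.382 CPM in these groups (6.85-fold over HFD, log2 fold change 2.78 ± 0.85 (SE), adjusted p = 0.0471). Without HFD unmatched the log2 fold change was 3.61 for Cyp2d40 and 2.90 for Cyp4f14. Counts of Cyp2d40 may share reads with other 2D genes. Since Cyp2d40 met the limit of 0.5 CPM in metformin only, nothing is read from its call.

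Cyp11a1, which cuts the side chain of cholesterol at the start of steroid synthesis, had 0.768, 1.06, 0.749 and 0.645 CPM on normal diet, 0.355, 0.563, 0.782 and 0.482 CPM on HFD and 0.274, 47.5, 0.911 and 0.491 CPM with metformin. Cyp17a1, the steroid hydroxylase and lyase of androgen synthesis, had 0.538, 0.404, 0.589 and 0.176 CPM on normal diet, 0.101, 0.205, 0.156 and 0.241 CPM on HFD and 0.206, 43.3, 1.72 and 0.546 CPM with metformin. Metformin 2 alone was high in both, and both genes overlapped between metformin and HFD. The fitted changes were large (Cyp11a1 log2 fold change 4.48 ± 1.39 (SE), adjusted p = 0.0492; Cyp17a1 log2 fold change 5.98 ± 1.56 (SE), adjusted p = 0.0295). Without metformin 2, Cyp11a1 had a log2 fold change of 0.04 and an adjusted p of 0.971, and Cyp17a1 did not pass the filter on low counts. Cyp21a1, the adrenal steroid hydroxylase that was not tested, had 8.91 CPM in metformin 2 and at most 0.202 CPM in the other 14 libraries. Metformin 2 also stood apart in the 8 markers of Leydig and adrenal cells, which summed to 574 CPM there and to 57.7 to 97.95 CPM in the other 14, with the Leydig hormone gene Insl3 at 340.1 CPM. None of the 8 was at 0 there or in normal diet 1, and 1 to 3 of them were in the other 13. Its 12 spermatogenic markers summed to 2346 CPM against at most 49.8 CPM, and the part of such cells in the P450 values of this library was not tested.

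**Figure D3:**
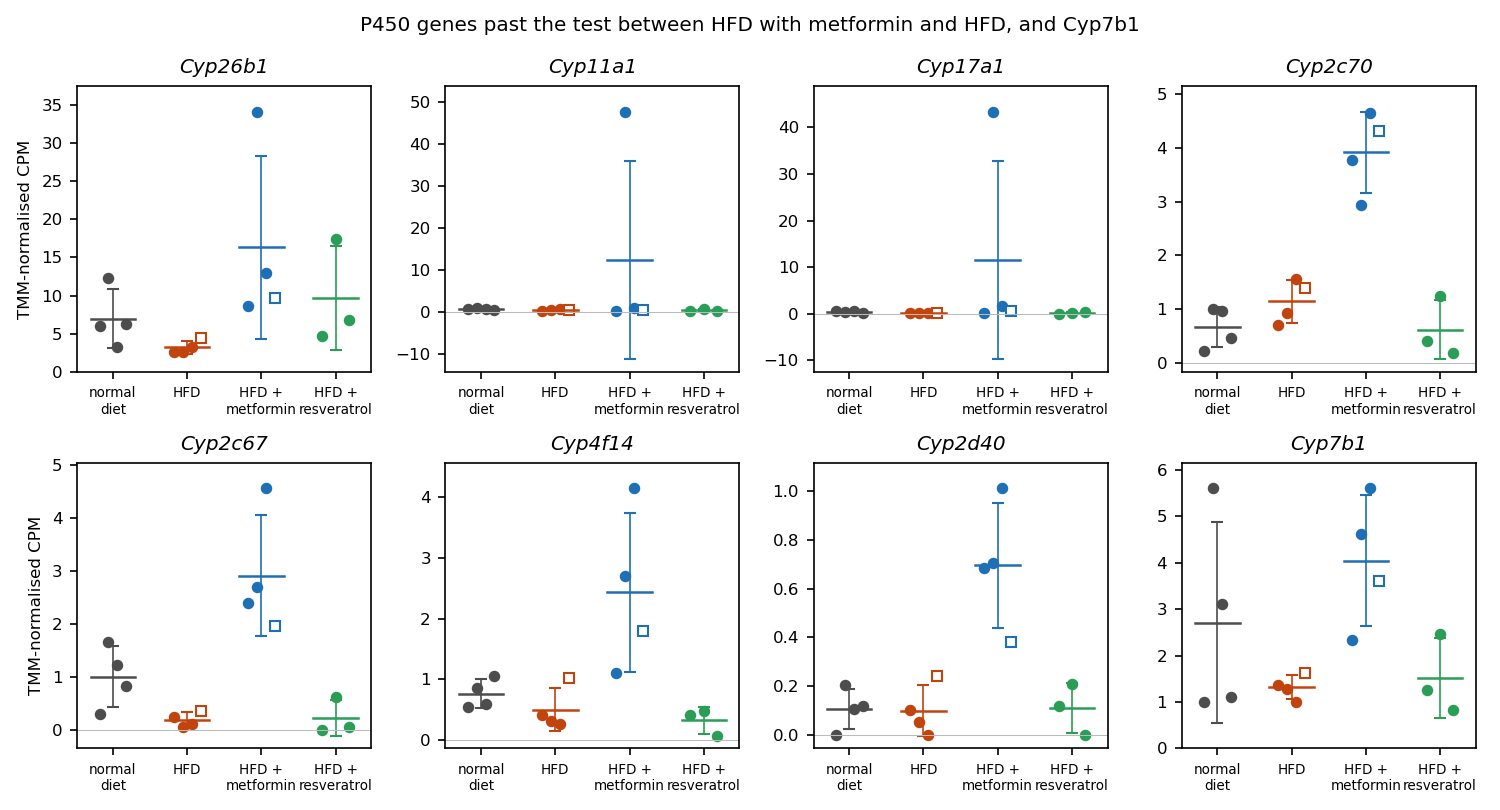
Level (TMM-normalised CPM, linear axis) of the other 7 P450 genes past the test between HFD with metformin and HFD, and of Cyp7b1, drawn as points per library with group means and 1 SD; open squares are the unmatched libraries. Cyp11a1 and Cyp17a1 are high in metformin 2 alone, while all metformin libraries are above the HFD libraries for Cyp2c70, Cyp2c67, Cyp4f14 and Cyp26b1.

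Among the well-known genes not called, Cyp7b1 had 2.33, 4.63, 5.62 and 3.6 CPM, all above the HFD libraries (log2 fold change 1.62, interval 0.46 to 2.77, adjusted p = 0.0577). It passed by DESeq2 (adjusted p = 0.0213), without normal diet 2 (0.0311) and without metformin 1 (0.042). Cyp4f18 was lower than HFD 1 to 3 in all 4, at 9.54, 3.58, 6.53 and 8.73 CPM (log2 fold change -0.95, interval -1.62 to -0.29, adjusted p = 0.0549). It passed in 5 alternatives, which were DESeq2 (0.0182), no unmatched columns (0.0335), and the fits without normal diet 2 (0.0473), HFD unmatched (0.0278) or metformin 1 (0.0343). Cyp27a1 had 128, 72.8, 83.6 and 88 CPM (log2 fold change 0.29, interval -0.08 to 0.67, adjusted p = 0.244) and Cyp1b1 82.8, 100.2, 78.3 and 91.3 CPM (log2 fold change -0.22, interval -0.72 to 0.27, adjusted p = 0.521), both overlapping with HFD. Among the other high-level genes, Cyp4b1 had 203, 66.1, 123 and 116 CPM (log2 fold change -0.32, interval -0.94 to 0.31, adjusted p = 0.467). Cyp20a1 had 39.5, 25.3, 38.4 and 30.9 CPM (log2 fold change -0.30, interval -0.59 to -0.01, adjusted p = 0.131). Cyp4f13 had 32.4, 26.4, 34.5 and 31.7 CPM (log2 fold change -0.0047, interval -0.20 to 0.19, adjusted p = 0.978). Metformin 2 held the lowest value of the 15 libraries for all 3.

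Calls with metformin were lost when single libraries were left out, and so were calls over all genes (469 to 3710, where 2445 passed with all 15). The log2 fold changes of Cyp2c70, Cyp2c67 and Cyp2d22 stayed at 1.60 to 1.96, 3.57 to 4.36 and 0.47 to 0.68 over these 15 fits, while that of Cyp11a1 ran from 0.04 to 4.90. Without HFD 2 or without HFD 3 no P450 gene passed, and without HFD 1 only Cyp2d22 did (adjusted p of the lost calls 0.0556 to 0.124). Cyp2c70 was also lost without normal diet 3 or 4, HFD unmatched, metformin 2, 4 or unmatched, or resveratrol 1 (0.0509 to 0.0747), and Cyp2d40 without normal diet 3 or 4, metformin unmatched or resveratrol 1 (0.0543 to 0.0628). Cyp11a1 was also lost without normal diet 1, 3 or 4, HFD unmatched or any resveratrol library (0.051 to 0.0769). Cyp2f2 was also lost without normal diet 4, metformin 2 or 4, or resveratrol 1 (0.0512 to 0.0866), and Cyp4f14 without metformin 2 or 4 (0.0555 and 0.0595). The count was 5 without normal diet 3 or 4, 2 without metformin 2, 4 without metformin 4, 14 without normal diet 2 and 15 without either metformin 1 or HFD unmatched. With the 5 libraries rich in ciliated epithelium genes left out, which leaves metformin with 1 library that is assumed to vary like the other groups, none passed (adjusted p 0.273 to 0.943 for the 8 that had a positive change), with that marker sum as a covariate none passed (0.0856 to 0.896), and with all 16 libraries none passed (0.0568 to 0.369). In this comparison 6 of the 10 liver markers rose and 0 fell, and 2 of 18 ciliated epithelium markers rose and 0 fell. Of 9 epididymis and accessory gland markers tested 3 rose, and the sum of the list was 25.5 to 63.89 CPM in metformin against 0.529 to 4.78 CPM in HFD. The part of these cell types in the P450 calls was not tested.

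**Figure D4:**
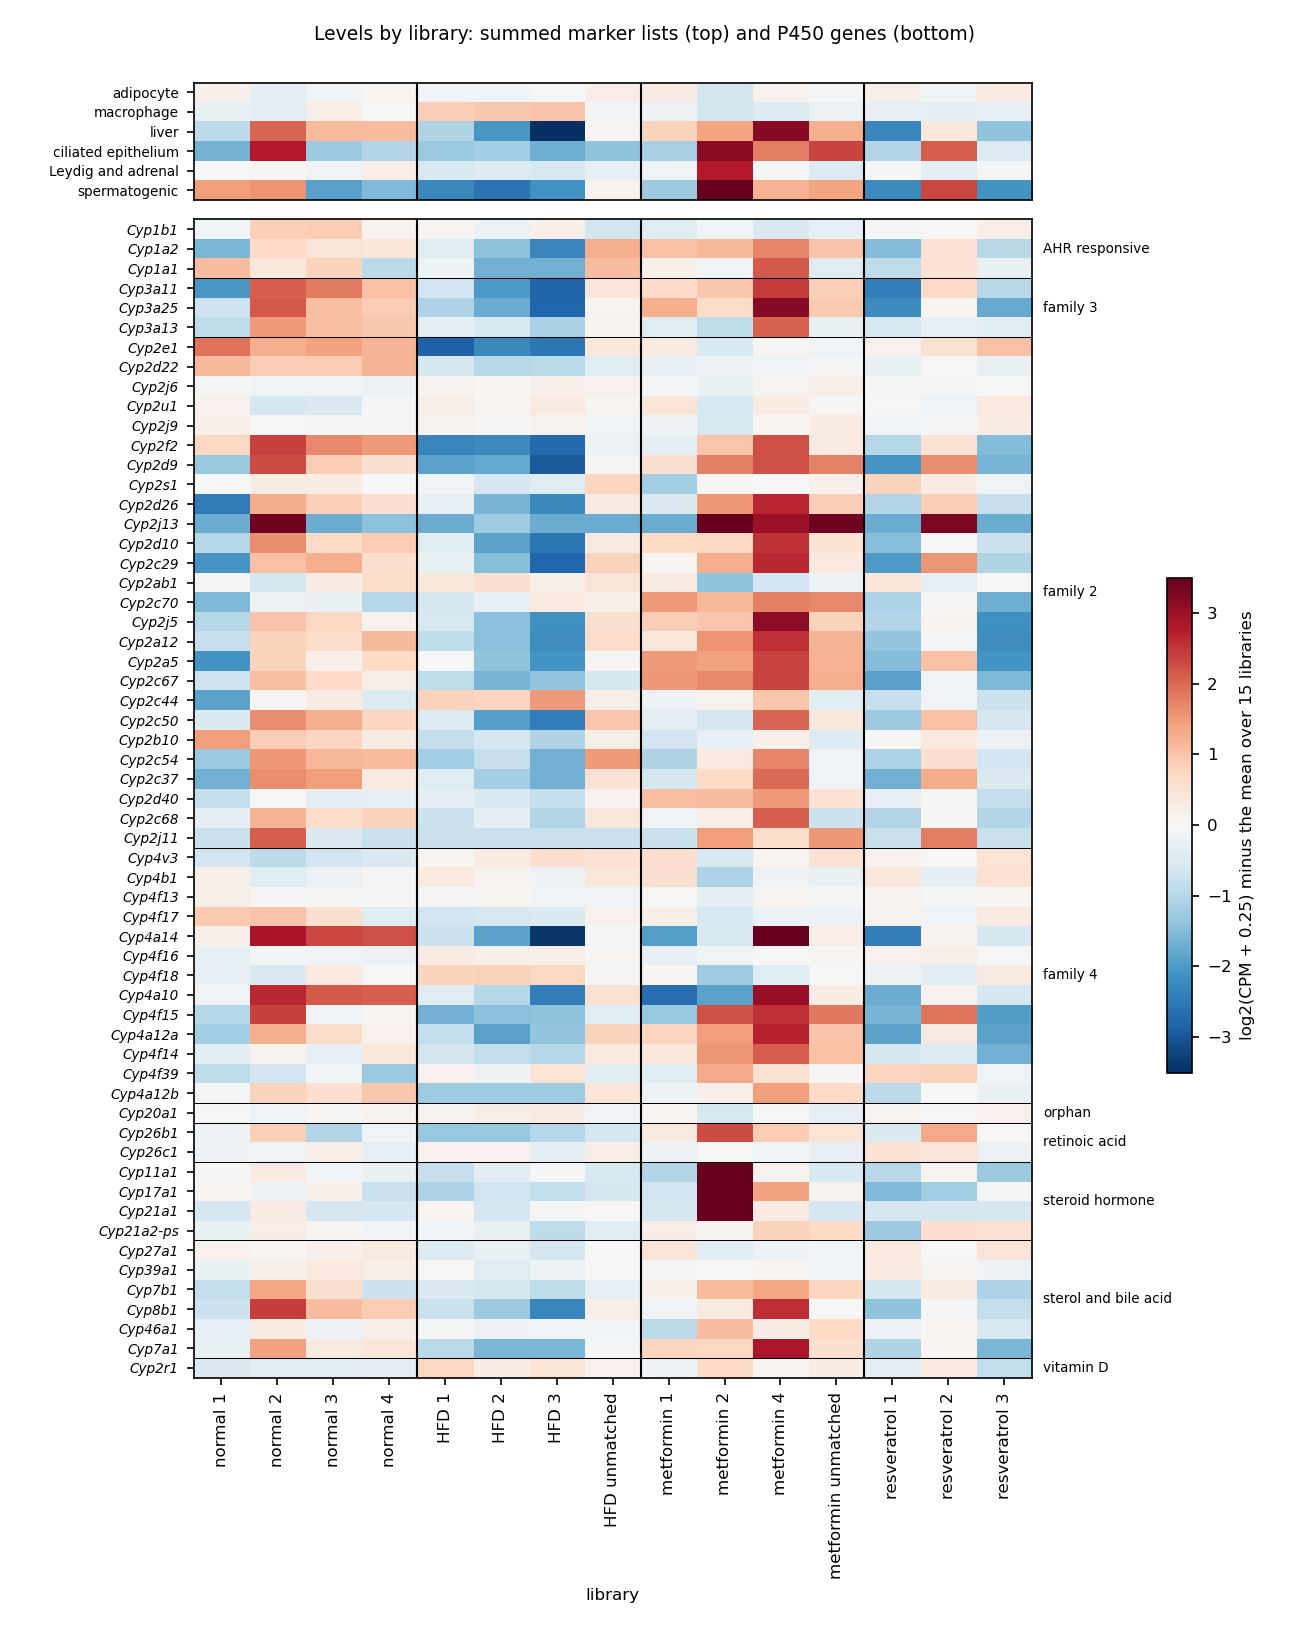
Log2(CPM + 0.25) minus its mean over 15 libraries for summed marker lists (top rows) and the 59 P450 genes by role (bottom rows), 1 column per library; red is above and blue below the mean. The metformin 4 column is red across most genes of families 2, 3 and 4, where the liver marker row is also reddest (1734 CPM), and Cyp11a1, Cyp17a1 and Cyp21a1 are darkest in metformin 2.

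Many genes of low level were highest in a single metformin library. Metformin 4 held the highest value of the 15 libraries for 28 of the 59 P450 genes (47.5%, against 4.6% of all genes tested). The 59 genes were chosen by their level in any of the groups, in some cases metformin only, and the genes tested as a whole were not. Nothing is therefore read from the contrast of these shares. None of the 28 genes was among the 10 genes with the highest level per length. The 28 genes included Cyp3a11 at 30.9 CPM, Cyp4a14 at 59.6 CPM, Cyp4a10 at 20 CPM, Cyp2c29 at 10.2 CPM and the bile acid enzymes Cyp7a1 and Cyp8b1 at 5.11 and 8.55 CPM. The number of P450 genes at 1 CPM or more ran from 23 in HFD 3, the library with the lowest liver marker sum, to 55 in metformin 4, the one with the highest. Cyp3a11 went from 0.573 CPM in the first to 30.9 CPM in the second. Cyp2e1, Cyp2d22 and Cyp2f2 were all 3 highest in a normal diet library. Of these, Cyp2f2 was lowest in HFD 3 (0.365 CPM). Its highest value was in normal diet 2 (21.1 CPM, liver marker sum 785 CPM), and metformin 4 came next (19.1 CPM). Whether the liver-type transcripts and these P450 genes come from the same source was not tested.

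**Figure D5:**
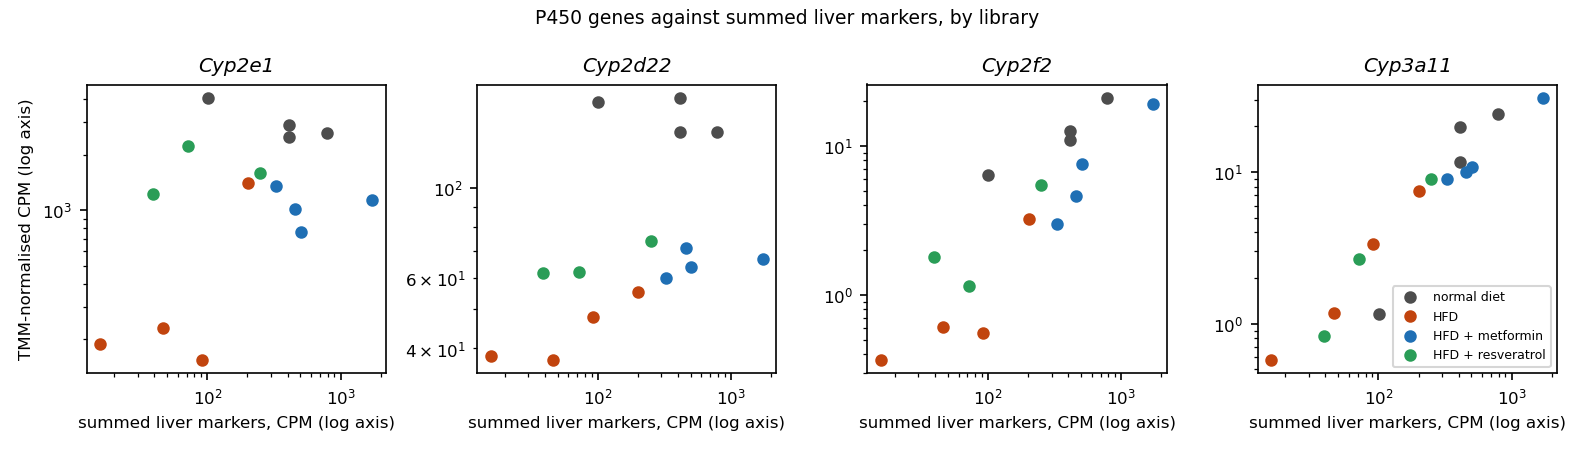
Level of 4 P450 genes (TMM-normalised CPM, log axis) against the summed level of 10 liver markers (CPM, log axis), 1 point per library in the fit, coloured by group. Cyp3a11 is lowest where the liver sum is lowest (15.7 CPM in HFD 3) and highest where it is highest (1734 CPM in metformin 4). Cyp2f2 is also lowest in HFD 3, and is highest in normal diet 2 with metformin 4 next. Cyp2e1 and Cyp2d22 are highest in a normal diet library.

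Another small set was high in the libraries rich in ciliated epithelium genes. In those 5 libraries Cyp2j13, of the arachidonate-oxidising 2J subfamily, lay at 8.49 (normal diet 2), 9.15 (metformin 2), 6.53 (metformin 4), 8.46 (metformin unmatched) and 7.97 CPM (resveratrol 2). The other 10 libraries had at most 0.102 CPM of it. Cyp4f15 was at 4.8, 4.28, 5.36, 3.22 and 3.3 CPM in the same 5 libraries and at most 0.762 CPM in the other 10. Both genes separated the 5 libraries from the rest, across 3 of the 4 groups. HFD was the 1 group without such a library, and Cyp2j11 had 0 counts in all 4 HFD libraries. None of these 3 genes passed in any comparison, and no fold is given for Cyp2j11 and Cyp2j13, with 0 and 2 counts over the HFD group. Cyp26b1, called with metformin, was also highest in the same 5 libraries (9.66 to 34.1 CPM, against 2.56 to 8.58 CPM in the other 10).

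The third comparison asks the same of resveratrol, with 3 libraries and the same HFD libraries as control. Cyp2d22 rose and no P450 gene fell. This was 1.72% of the 58 tested, where 4.17% of all genes passed (1.09% higher and 3.09% lower), and 7 of 58 had an unadjusted p under 0.05, beside 22.4% of all genes. The fitted change was positive for 37 of 58 genes, with a median of 0.15 against 0.04 over all genes. Nothing is read from this count and median, since the genes were chosen by their level in any of the groups. Cyp2d22 had 61.7, 73.8 and 62 CPM, all above the HFD libraries and below the normal diet ones (1.47-fold over HFD, log2 fold change 0.56 ± 0.13 (SE), adjusted p = 0.0405). The call was lost without HFD 1, 2 or 3, resveratrol 1, 2 or 3, metformin 4 or metformin unmatched (adjusted p 0.0515 to 0.141). It was also lost with no filter on low counts (0.0646), with all 16 libraries (0.709), without the 5 libraries rich in ciliated epithelium genes (0.123) and with their marker sum as a covariate (0.0527).

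Cyp2e1 had 1222, 1583 and 2229.8 CPM with resveratrol (log2 fold change 1.76, interval 0.39 to 3.13, adjusted p = 0.128). All 3 libraries were above HFD 1 to 3 and resveratrol 1 was below HFD unmatched. Without HFD unmatched the log2 fold change was 3.16 (adjusted p = 0.000278) and 4 P450 genes passed. Cyp27a1 had 120.3, 93.3 and 128 CPM, resveratrol 2 being below HFD unmatched (log2 fold change 0.58, interval 0.18 to 0.98, adjusted p = 0.0875), and it passed in 5 alternatives (adjusted p 0.0235 to 0.0452), which were DESeq2, no unmatched columns, the ciliated marker sum as a covariate, and the fits without HFD unmatched or metformin 1. Cyp26b1 had 4.71, 17.5 and 6.82 CPM, all above HFD (log2 fold change 1.59, interval 0.35 to 2.82, adjusted p = 0.128). Its highest value was in resveratrol 2, the library rich in ciliated epithelium genes.

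The other genes that HFD had moved did not pass with resveratrol. Cyp4v3 had 214, 193 and 269 CPM (log2 fold change -0.15, interval -0.64 to 0.35, adjusted p = 0.743). Cyp4f16 had 16.3, 16.9 and 14.9 CPM (log2 fold change -0.07, interval -0.29 to 0.16, adjusted p = 0.753). Cyp2r1 had 1.67, 2.82 and 1.08 CPM (log2 fold change -0.70, interval -1.39 to -0.01, adjusted p = 0.22). Resveratrol overlapped with HFD for all 3, and for Cyp4v3 and Cyp4f16 it lay above every normal diet library. Cyp4f17 had 24.1, 20.5 and 27.8 CPM (log2 fold change 0.47, interval -0.19 to 1.13, adjusted p = 0.378). Cyp2f2 had 1.79, 5.5 and 1.15 CPM (log2 fold change 1.24, interval -0.56 to 3.03, adjusted p = 0.398). Cyp2b10 had 0.953, 1.24 and 0.765 CPM (log2 fold change 0.77, interval -0.22 to 1.75, adjusted p = 0.338). These 3 genes, lower on HFD, overlapped with HFD too.

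Most genes called with metformin were at low levels with resveratrol. Cyp2c67 had 0, 0.618 and 0.0637 CPM and Cyp2c70 0.417, 1.24 and 0.191 CPM. Cyp4f14 had 0.417, 0.481 and 0.0637 CPM and Cyp2d40 0.119, 0.206 and 0 CPM. The steroid genes Cyp11a1 and Cyp17a1 had 0.298, 0.893 and 0.191 CPM and 0, 0.0687 and 0.446 CPM. Each of these 6 genes overlapped with HFD, and its adjusted p against HFD was 0.386 or more. The oxysterol hydroxylase Cyp7b1 had 1.25, 2.47 and 0.828 CPM (adjusted p = 0.871) and Cyp4f18 7.74, 6.87 and 11.2 CPM (0.256). Cyp1b1 had 106, 113 and 131 CPM (0.705) and Cyp4b1 184, 112 and 203 CPM (0.918). Cyp20a1 had 40.2, 37.7 and 42 CPM (0.89) and Cyp4f13 35.3, 31.6 and 34.4 CPM (0.554). Each of these genes overlapped with HFD.

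Set against each other, the drugs gave 0 P450 genes past edgeR's quasi-likelihood test. None of 58 passed, beside 0.0114% of all genes, 13 had an unadjusted p under 0.05 against 7.01% of all genes, and DESeq2 called 3. The fitted difference, metformin minus resveratrol, was positive for 40 of 58 genes, with a median of 1.12 against 0.02 over all genes. Cyp17a1, Cyp2d40 and Cyp2j11 met the limit of 0.5 CPM in metformin only. Nothing is therefore read from the 13 genes under an unadjusted p of 0.05, the 40 of 58 or the median. In the fit, every metformin library was above every resveratrol library for Cyp2c67, Cyp2c70 and Cyp4f14. The same held for Cyp2d40, but that gene entered through metformin only, so nothing is read from it. The log2 fold change was 2.67 for Cyp2c70 (interval 1.33 to 4.00, adjusted p = 0.501) and 2.90 for Cyp4f14 (interval 1.41 to 4.39, adjusted p = 0.536). The liver marker sum was likewise above resveratrol in every metformin library of the fit (328 to 1734 CPM against 39.1 to 249.5 CPM). Resveratrol 4, left out of the fit, had 2.41, 3.02 and 0.604 CPM of Cyp2c67, Cyp2c70 and Cyp2d40, within the metformin range. It had 1.01 CPM of Cyp4f14, below every metformin library, and a liver marker sum of 338 CPM, within the metformin range. The median difference of the 10 liver markers was 2.62 with none past the test, and their part in the P450 values was not tested. For Cyp2e1 the difference was -0.66 (interval -2.02 to 0.70, adjusted p = 0.803) and for Cyp2d22 -0.01 (interval -0.30 to 0.28, adjusted p = 0.989).

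Genes that work with P450 enzymes were counted by list, and the share of all genes past the test was 13.8% higher and 9.34% lower with HFD. Of the 16 electron donor and haem genes, 4 rose and 3 fell with HFD. The mitochondrial electron carrier Cyb5b (log2 fold change 1.76), the bilirubin-forming Blvra (1.37) and the haem oxygenase Hmox1 (1.07) rose, and the ferredoxin Fdx1 fell (-0.71). Of 16 xenobiotic and sterol receptors, Rxrg rose (0.72) and the aryl hydrocarbon receptor Ahr (-0.51) and its partner Arnt (-0.47) fell. Conjugating enzymes and transporters had 2 higher and 11 lower of 29 tested, with Gsta4 (-1.97), Gsta3 (-1.95), Aox3 (-1.72) and Ces1f (-1.52) moving most. The median log2 change was 0.20, -0.28 and -0.67 in these 3 lists.

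Of the 18 retinoid genes tested, 4 rose and 6 fell with HFD (median -0.44). Among them Dhrs9, a retinol dehydrogenase, rose (2.83), and Dhrs3 rose (0.89). The retinol carrier receptor Stra6 had 0 counts in all HFD libraries and 0.6 ± 0.688 CPM (n = 4) on normal diet, and Lrat had 0.0128 ± 0.0256 CPM on HFD and 0.525 ± 0.741 CPM on normal diet (n = 4 each), both being among those that fell. All 4 called genes of the 15 of the eicosanoid list rose, Ltc4s (1.44), Tbxas1 (1.27), Ephx1 (1.02) and Alox5ap (0.96), while the median of the list was -0.08. Among 15 sterol and steroid partners 4 rose and Hsd11b1, which regenerates active glucocorticoid, fell (-1.72). Macrophage markers moved in the same comparison. The 13 genes of that list gave 14 entries, since Itgam stood under separate gene identifiers. Of these 14 entries 8 rose and 1 fell with HFD, and of 10 markers of lipid-associated macrophages 7 rose (median 2.91). Their part in the changes of the 6 lists was not tested.

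With metformin the counts of genes that rose and fell were 1 and 2 of 16 for electron donors and haem, 1 and 0 of 16 for receptors, 3 and 1 of 18 for retinoid genes, 1 and 3 of 15 for eicosanoid genes, 0 and 1 of 15 for sterol partners and 4 and 0 of 29 for conjugation. Of all genes 6.1% rose and 7.85% fell in this comparison. With resveratrol the counts were 0 and 2, 0 and 0, 1 and 1, 0 and 3, 0 and 0, and 4 and 0, where 1.09% of all genes rose and 3.09% fell. Gsta4, Gstt1 and Gstt2 rose with either drug (log2 fold change 1.75, 0.73 and 0.58 with metformin, 1.62, 0.83 and 0.58 with resveratrol), and Dhrs9 fell with either (-3.57 and -3.76). Both drug comparisons share the HFD libraries. Of the 14 macrophage entries 10 fell with metformin and 6 with resveratrol, and of the 10 lipid-associated macrophage genes 7 fell with either. None of either list rose with either drug, and their part in the list changes was not tested.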

How the data were processed

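RNA of epididymal fat was sequenced in 16 libraries. The deposited mRNA table held raw counts per transcript (whole numbers, per the file headers) beside the authors' FPKM values, which were used only to check which column belonged to which library, and the deposited transcript length (another column, per the file headers) was used for levels per length. Its lines hold 1 cell more than its header has names, and counts were taken from the last 16 cells. 5 broken records were rejoined. For the 14 libraries with a title, the totals that the authors' FPKM, counts and lengths imply differed from the summed counts by at most 0.0418%, and by at least 0.492% with another library's column. The 4 FPKM columns of the unmatched libraries were not used. Tools named in the submitters' processing notes are fastp and HISAT2, with build GRCm38. How reads were counted, with which strand setting and filters, is not given in the sources used here, and near-identical, overlapping and antisense genes are therefore uncertain.

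Transcripts were summed by gene identifier to 27150 genes. A robust quasi-likelihood model (edgeR 4.0.16, R 4.3.3) with group as factor was fitted to 15 libraries, with TMM normalisation; filterByExpr left 17535 genes. Tests were two-sided, with Benjamini-Hochberg adjustment over all genes tested and a threshold of 0.05. CPM are TMM-normalised, except summed marker lists and Crisp1, which are per 1000000 mRNA counts without TMM. The p-values reflect how far these libraries spread; the labels do not say whether each came from 1 mouse. Values by library are printed for genes past the threshold in any comparison, the 10 with the highest level per length and 6 well-known genes (22 in all). List genes are named by largest log2 fold change, at most 4 per list. Cyp4a14, Cyp3a11, Cyp4a10, Cyp2c29, Cyp7a1, Cyp8b1, Cyp21a1, Cyp2j11, Cyp2j13 and Cyp4f15 were singled out after their values were seen. The members, lists and tests were chosen with earlier results of these data known. Alternatives were DESeq2 1.42.0, its size factors, no filter, all 16 libraries, no unmatched columns, no libraries with ciliated markers above 300 CPM, those markers as a covariate, and each of 15 libraries left out.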

Additional observations from a re-analysis of the deposited data

Results flagged for a closer look

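In groups of 4 libraries, 66 sets of values were examined for 1 library far from the other 3 (Dixon's 95% criterion), and 7 were found; chance gives about 1 in 20. Of these, 4 were in HFD unmatched. Cyp2e1 was at 1410 CPM there against 154 to 230 CPM in HFD 1 to 3, Cyp4f17 at 24.9 against 14 to 15.8 CPM, Cyp2f2 at 3.25 against 0.365 to 0.614 CPM, and Cyp4f18 lower, at 8.67 against 14.9 to 15.9 CPM. Metformin 2 held 47.5 CPM of Cyp11a1 against 0.274 to 0.911 CPM and 43.3 CPM of Cyp17a1 against 0.206 to 1.72 CPM. Cyp4f13 was at 37.6 CPM in normal diet 1 against 33.6 to 33.8 CPM.

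The library left out of the fit, resveratrol 4, held more than any of the other 15 libraries of 10 P450 genes among those described. Cyp17a1 was at 209 CPM, Cyp2j13 at 171 CPM (at most 9.15 CPM elsewhere), Cyp4a12a at 80.1 CPM (at most 5.72 CPM), Cyp4f13 at 44.6 CPM, Cyp39a1 at 25.8 CPM (4.76 to 8.19 CPM), Cyp2j11 at 19 CPM (at most 1.62 CPM), Cyp7b1 at 11.2 CPM, Cyp2r1 at 7.24 CPM, Cyp4f15 at 6.1 CPM and Cyp4a12b at 5.7 CPM. Cyp4a12a and Cyp4a12b are near-identical and may share reads. Its adipocyte marker sum was 1753 CPM.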

How the results depend on the processing

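The number of P450 genes called moved with the setting. Between HFD and normal diet it was 8, and 3 with all 16 libraries and 5 to 16 with 1 library left out. By DESeq2 it was 17 in that comparison, where 5293 of all 18399 genes tested passed. Between metformin and HFD it was 9, and 4 with no filter on low counts, 19 by DESeq2, 16 without the unmatched columns, 0 to 15 with 1 library left out, and 0 with all 16 libraries, without the ciliated-rich libraries or with the covariate. Between resveratrol and HFD it was 1, and 2 by DESeq2, 4 without the unmatched columns, 0 with no filter, all 16 libraries or no ciliated-rich libraries, and 0 to 4 with 1 library left out. With the covariate it was 1 as well, but that gene was Cyp27a1 (adjusted p = 0.0348) and not Cyp2d22 (0.0527). Between the drugs it was 0, and 3 by DESeq2. Over all genes, 4050 passed between HFD and normal diet (1523 with all 16 libraries, 2720 to 4979 with 1 left out), 2445 between metformin and HFD (4237 by DESeq2, 1541 with no filter, 89 with all 16 libraries, 18 without the ciliated-rich libraries, 11 with the covariate, 469 to 3710 with 1 left out) and 732 between resveratrol and HFD (2152 by DESeq2, 351 with no filter, 380 with all 16, 17 without the ciliated-rich libraries, 1855 without the unmatched columns, 1 to 2066 with 1 left out), and 2 between the drugs (30 by DESeq2, 0 with no filter or all 16, 3 without the ciliated-rich libraries, 4 with the covariate, 0 to 3 with 1 left out). The cause was not tested. Cyp11a1 in metformin against HFD turned to -0.97 without the ciliated-rich libraries, and Cyp7b1 in resveratrol against HFD turned to -0.33 without them, -0.45 with the covariate and -0.34 without resveratrol 2, the range with 1 library left out being -0.34 to 0.50; neither gene passed there. Cyp2d22, Cyp2f2 and Cyp2b10 passed between HFD and normal diet in every alternative. No paired analysis was possible because the titles carry codes, whose parts are not said to number replicates across groups. Depth limits genes under about 1 CPM, and metformin kept 1 library without the ciliated-rich libraries.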
